A study of Mus musculus with 6 samples.

Results

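The Rab GTPase genes of mouse pancreatic islets are described here in islets with and without urocortin 3, a peptide hormone of mature beta cells. Members were chosen by gene symbol alone: every row of the deposited expression table named Rab followed by a number, with at most 1 letter and 1 digit after it. This gave 57 genes of the 21813 gene symbols in the table, on 65 of its 28011 transcript rows. For each gene the transcript with the highest mean over the libraries was used. Islets came from 3 Ucn3 null males and 3 wild type littermate males, all 3 months old, and each animal gave 1 RNA library. The labels used here name neither the strain nor the construction of the null allele. Values are RPKM, reads scaled to transcript length and library depth. This scaling does not correct for differences in RNA composition between libraries, and some counts below changed with median-ratio scaling of the libraries.

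Rab proteins are small GTPases that mark membrane compartments and switch between a GTP-bound active form and a GDP-bound inactive form. Exchange factors load GTP, GTPase-activating proteins end the signal, and effectors such as tethers and motor adaptors read the active form. A prenyl anchor at the carboxyl end holds a Rab on its membrane. In beta cells Rab3 and Rab27 proteins sit on insulin granules and take part in their docking and release. Urocortin 3 acts on islet cells through the receptor Crhr2, which couples to cyclic AMP.

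The 6 libraries matched their labels at the targeted gene, since Ucn3 stood at 136 to 157 RPKM in the wild type and 1.61 to 1.80 RPKM in the nulls. The labelled tissue was checked by hormone genes: Ins2 was at 184445 RPKM or more in every library, with Gcg and Sst present in all. Depth, read from the spacing of low values, was 42570000 to 51890000 reads per library. Acinar markers, genes of the exocrine tissue around islets, summed to 689 to 8473 RPKM in the wild type and 6186 to 30971 RPKM in null libraries over 24 genes, none of them at 0. Delta cell markers summed to 1749 to 2407 RPKM in the wild type and 684 to 1084 RPKM in null libraries over 5 genes, none of them at 0. In whole islets fewer cells of a type and less RNA per cell cannot be told apart.

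Of the 57 Rab genes, 47 averaged at least 1 RPKM and were tested, and 10 fell under this level. Islets held most of the family: 45 members lay above the middle of all gene symbols and 18 at or above their 90th percentile. The median member was at 8.49 RPKM, against 2.06 RPKM for all symbols. Together the members summed to 865 to 925 RPKM in the wild type and 835 to 895 RPKM in null libraries, 0.184% to 0.190% and 0.179% to 0.191% of all RPKM. The groups overlapped in both measures. The 4 highest members, Rab7, Rab2a, Rab1 and Rab27a, made up 29.1% of the Rab sum, and the 10 highest 50.9%. Between the highest member, Rab7, and the lowest, Rab33a, the mean level differed 589-fold.

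**Figure D1:**
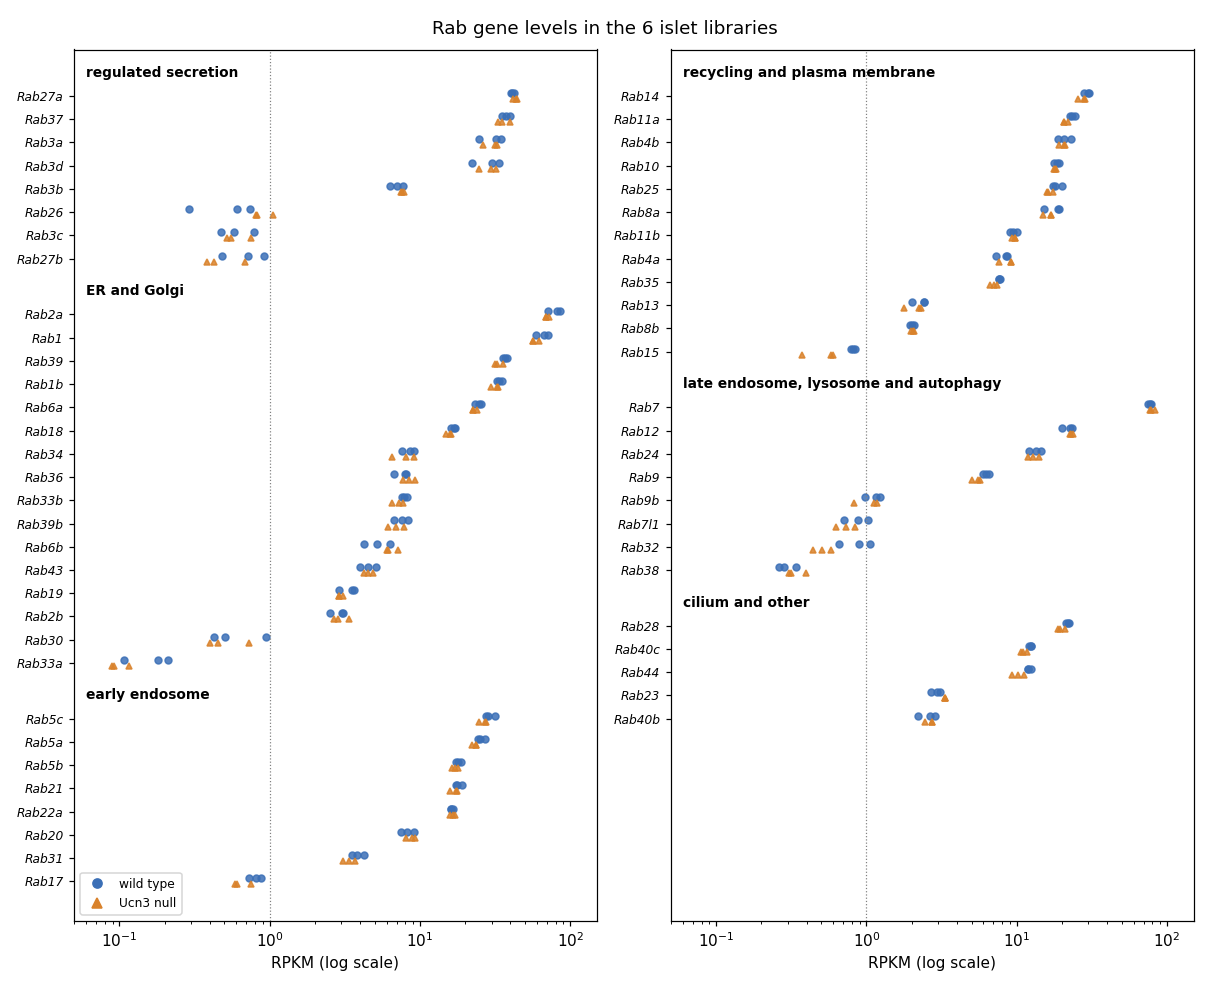
RPKM of each of the 57 Rab genes on a log axis, grouped by the compartment the protein is known for; circles are the 3 wild type and triangles the 3 Ucn3 null libraries, and the dotted line is the 1 RPKM level for testing. The points of the 2 genotypes lie close together for the 47 genes that average above the line, and 10 genes average under it.

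The order of levels was mostly gradual. Of 56 pairs of neighbours in the order, 50 had ranges over the 6 libraries that overlapped. Such an overlap does not mean that the order changed within a library, since Rab2a was above Rab1 in every library. The 6 clear steps included the one below Rab1, whose lowest library, 56.3 RPKM, was above the highest Rab27a library, 43.9 RPKM. Another lay below Rab8b, between 1.94 RPKM at its lowest and 1.22 RPKM at the highest library of Rab9b. Rab9b, at 1.12 ± 0.12 RPKM in wild type (SD, n = 3), was the member just inside the filter. Rab7l1, a gene now named Rab29 that acts at the Golgi and lysosome, was the one just outside, at 0.87 ± 0.16 RPKM (SD, n = 3).

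Rab genes of regulated secretion were split between abundant and scarce paralogs, and the sequences before their start sites are shown because the levels of the 4 Rab3 genes differ so widely. Rab3a averaged 49.7 times the level of Rab3c. The sequences come from RefSeq on build GRCm38.p6 and cover the 250 bases before the annotated start, or before the most upstream start where there are several, with CpG dinucleotides in capitals. The windows lie as follows: Rab3a at chr8:70754453-70754702 on the plus strand, Rab3b at chr4:108878820-108879069 on the plus strand, Rab3c at chr13:110280207-110280456 on the minus strand, Rab3d at chr9:21918184-21918433 on the minus strand and Rab27a at chr9:73044560-73044809 on the plus strand.
Rab3a: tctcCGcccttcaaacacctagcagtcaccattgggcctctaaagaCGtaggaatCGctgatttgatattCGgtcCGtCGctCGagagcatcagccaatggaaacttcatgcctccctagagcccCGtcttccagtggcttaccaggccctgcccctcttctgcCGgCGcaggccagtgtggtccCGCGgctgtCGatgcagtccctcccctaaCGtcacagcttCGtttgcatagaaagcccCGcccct
Rab3d: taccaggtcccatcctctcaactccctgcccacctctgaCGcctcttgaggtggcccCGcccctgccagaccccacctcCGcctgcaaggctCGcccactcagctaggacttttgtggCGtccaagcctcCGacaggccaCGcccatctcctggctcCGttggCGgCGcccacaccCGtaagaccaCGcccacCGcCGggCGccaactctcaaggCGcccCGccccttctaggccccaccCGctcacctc
Rab27a: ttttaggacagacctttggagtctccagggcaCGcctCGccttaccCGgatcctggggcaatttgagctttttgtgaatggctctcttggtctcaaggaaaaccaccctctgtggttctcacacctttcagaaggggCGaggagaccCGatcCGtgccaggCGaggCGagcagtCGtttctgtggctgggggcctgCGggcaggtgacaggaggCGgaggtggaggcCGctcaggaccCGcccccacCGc
Rab3b: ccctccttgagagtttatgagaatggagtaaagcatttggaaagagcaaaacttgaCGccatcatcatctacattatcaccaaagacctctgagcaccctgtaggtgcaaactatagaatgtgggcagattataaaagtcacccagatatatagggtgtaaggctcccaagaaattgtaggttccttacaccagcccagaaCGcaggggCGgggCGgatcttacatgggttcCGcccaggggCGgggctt
Rab3c: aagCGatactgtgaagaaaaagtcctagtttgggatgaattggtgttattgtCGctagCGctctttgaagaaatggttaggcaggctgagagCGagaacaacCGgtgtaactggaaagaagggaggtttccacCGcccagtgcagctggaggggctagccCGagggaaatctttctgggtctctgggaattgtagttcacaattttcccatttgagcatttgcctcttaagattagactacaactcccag
The windows of Rab3a, Rab3d and Rab27a, the genes of high level, hold 16, 18 and 14 CpG dinucleotides. Those of Rab3b and Rab3c hold 6 and 7, though these genes differ in mean level, at 7.31 and 0.61 RPKM. Windows of the other secretory members, Rab27b, Rab37 and Rab26, are not shown. Over the 41 tested members with a window the median was 18 CpG, with a range from 6 to 40. Over 6 members under the filter it was 7, with a range from 3 to 27 that overlaps that of the tested members. It was 16 over 8766 tested genes and 6 over all 27025 promoters. These counts are a description of the windows; their part in the levels was not tested.

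Rab27a, which links insulin granules to the plasma membrane through granuphilin, was the highest gene of regulated secretion. It held 40.3, 40.8 and 42.1 RPKM in the wild type libraries and 43.9, 43.4 and 41.3 RPKM in the null libraries. The groups overlapped at 1 library each, and the difference was 0.06 on the log2(RPKM + 1) scale, null minus wild type (SE 0.07, 95% interval -0.09 to 0.21, limma adjusted p = 0.82). Its paralog Rab27b was at 0.91, 0.72 and 0.48 RPKM in the wild type and 0.68, 0.43 and 0.38 RPKM in the nulls, about 122 to 268 reads per library. Rab27a was thus 97.8% to 99.1% of the pair in every library.

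Rab37, known from mast cell and insulin granules, stood at 35.01, 37.1 and 40.0 RPKM in the wild type and 32.8, 35.2 and 39.9 RPKM in the nulls. The ranges nearly coincided, with a log2 difference of -0.06 (95% interval -0.27 to 0.16, limma adjusted p = 0.90).

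Rab3a, the main Rab of synaptic vesicles and of insulin granules, was at 24.8, 32.3 and 34.7 RPKM in the wild type and 26.3, 31.3 and 32.7 RPKM in the nulls. Rab3d, known from the zymogen granules of acinar cells and from other secretory granules, was at 22.1, 33.6 and 30.0 RPKM and at 24.8, 32.1 and 29.6 RPKM. In both genes replicate 1 was the low library of its genotype, and the genotypes overlapped almost fully. The log2 differences were -0.01 for Rab3a (95% interval -0.34 to 0.31) and 0.03 for Rab3d (95% interval -0.35 to 0.40), with limma adjusted p = 0.985 and 0.974. These 2 genes had coefficients of variation of 16.8% and 20.6% among wild type animals, against a median of 7.05% over the tested members. Mean acinar marker level, on the log2 scale, was highest in the same replicate 1 of each genotype, at 7.17 in wild type and 8.88 in null islets. Its part in the low Rab3 values was not tested. The sign of the Rab3d difference turned without wild type replicate 1 (-0.141) or Ucn3 null replicate 2 (-0.051), and that of Rab3a turned in 5 of 13 alternatives. With the acinar marker mean as a covariate Rab3d stood at 0.373 (95% interval -0.001 to 0.746, limma adjusted p = 0.976) and Rab3a at 0.244 (95% interval -0.123 to 0.611, limma adjusted p = 0.976), the 2 widest moves of any tested Rab gene under that covariate.

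Rab3b, a further Rab of secretory vesicles, was at 6.34, 7.67 and 7.01 RPKM in the wild type and 7.79, 7.55 and 7.47 RPKM in the nulls. Wild type replicate 2 lay inside the null range, and the log2 difference of 0.11 did not pass (95% interval -0.07 to 0.29, limma adjusted p = 0.71). Rab3c was low throughout, at 0.47 to 0.79 RPKM in the wild type and 0.52 to 0.75 RPKM in the nulls. Within the Rab3 subfamily Rab3a made up 45.8% ± 2.19 and Rab3d 42.6% ± 2.44 in wild type, and 44.8% ± 1.40 and 42.9% ± 1.73 in null islets (SD, n = 3 each). The shares overlapped, and which of the 2 genes led differed between libraries.

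Rab26, a Rab of secretory granules in exocrine cells, was scarce, at 0.74, 0.29 and 0.61 RPKM in the wild type and 0.82, 1.05 and 0.81 RPKM in the nulls. The 3 null values lay above the 3 wild type values, at about 59 to 79 reads against 22 to 49. It was under the filter and so had no test; without a filter its limma adjusted p was 0.57. Wild type replicate 2, the lowest library for Rab26, was also the lowest for the acinar markers, at a mean log2 level of 4.17 against 5.99 to 8.88 in the other 5. The part of acinar RNA in the Rab26 values was not tested.

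**Figure D2:**
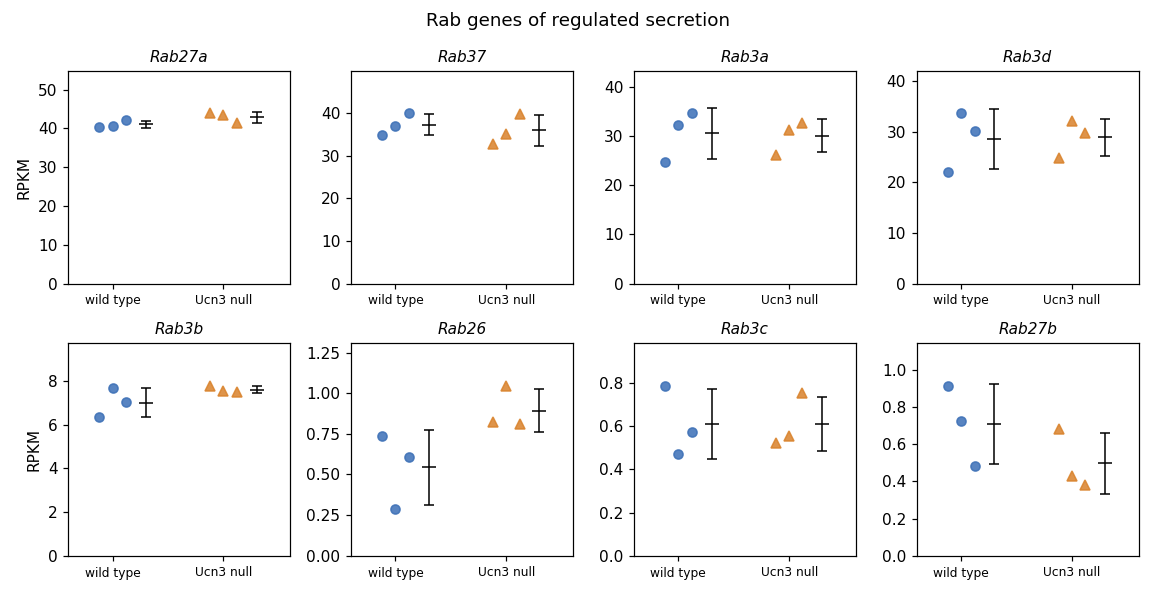
RPKM of the 8 Rab genes of regulated secretion in each library, with a linear axis from 0 for each gene; circles are wild type and triangles Ucn3 null animals, and the bars are the mean ± SD of 3 animals. Rab27a, Rab37, Rab3a and Rab3d reach 20 RPKM or more in every library, while Rab26, Rab3c and Rab27b average under 1 RPKM.

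Rab genes of the endoplasmic reticulum and Golgi held 2 of the 3 members over 50 RPKM. Rab2a, which acts in traffic between the endoplasmic reticulum and Golgi and in granule formation, was at 71.3, 85.2 and 81.0 RPKM in the wild type and 69.4, 69.4 and 71.7 RPKM in the nulls. Only wild type replicate 1 lay within the null range. The log2 difference was -0.17 (SE 0.09, 95% interval -0.37 to 0.03, limma adjusted p = 0.59). Rab1, the mouse Rab1a gene needed for transport from the endoplasmic reticulum, showed the same order of libraries, at 59.2, 71.1 and 67.0 RPKM against 56.8, 56.3 and 62.1 RPKM. Its log2 difference was -0.17 (95% interval -0.38 to 0.05, limma adjusted p = 0.61). Rab39, a Rab of Golgi and endosomal membranes, was at 36.9, 37.8 and 35.5 RPKM and at 32.8, 31.6 and 35.4 RPKM. Its groups did not overlap, but the nearest libraries were at 35.4 and 35.5 RPKM, and the difference of -0.14 did not pass (limma adjusted p = 0.58). Of the 14 tested genes of the group 10 were negative and 4 positive, with a median of -0.09. Over all tested genes 61.7% were negative, with a median of -0.03. The highest difference of any tested Rab gene was also here: Rab6b, the neuronal form of the Golgi Rab6, at 5.15, 4.25 and 6.34 RPKM in the wild type and 7.10, 6.04 and 6.14 RPKM in the nulls. These groups overlapped, and the log2 difference of 0.26 did not pass (SE 0.13, 95% interval -0.03 to 0.55, limma adjusted p = 0.57). With the acinar marker mean as a covariate the Rab6b difference was 0.069 (95% interval -0.322 to 0.46). That of Rab2a was -0.028 (95% interval -0.247 to 0.192). The part of acinar RNA in these values was not tested.

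Early endosome genes were led by the 3 Rab5 genes. Rab5c, Rab5a and Rab5b, the Rabs of early endosome fusion, averaged 29.3, 25.5 and 18.1 RPKM in the wild type and 26.4, 23.2 and 17.1 RPKM in the nulls. Rab5c held 27.5, 31.8 and 28.5 RPKM in the wild type and 24.7, 27.5 and 27.2 RPKM in the nulls. For Rab5a the values were 24.3, 25.0 and 27.1 RPKM and 23.6, 22.2 and 23.8 RPKM. In both genes every null library was below every wild type library, yet for Rab5c the nearest libraries of the 2 genotypes both rounded to 27.5 RPKM. Their log2 differences, -0.14 and -0.13, did not pass (limma adjusted p = 0.64 and 0.61). Rab5b had overlapping groups and a difference of -0.08 (limma adjusted p = 0.78). Over the 7 tested genes of the group the median was -0.08, with 5 negative, beside -0.03 and 61.7% negative over all tested genes.

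The recycling and plasma membrane group held 12 genes, 11 of them tested. Rab14, a Rab of the trans-Golgi and recycling endosome, was its highest member at 29.4 ± 1.19 RPKM in the wild type and 27.4 ± 1.54 RPKM in the nulls (SD, n = 3 each). Rab11a, the recycling endosome Rab, was at 22.8, 24.5 and 23.3 RPKM in the wild type and 20.6, 20.7 and 22.1 RPKM in the nulls. Its groups did not overlap, and the log2 difference of -0.15 did not pass (SE 0.07, 95% interval -0.30 to 0.01, limma adjusted p = 0.54). Rab4b, a Rab of fast recycling, overlapped, at 19.0, 20.6 and 22.9 RPKM against 19.1, 20.5 and 21.0 RPKM. Rab25, an epithelial relative of Rab11, was at 17.5, 19.9 and 17.9 RPKM and at 15.8, 16.2 and 17.4 RPKM, again without overlap (log2 difference -0.15, limma adjusted p = 0.57). Ductal markers, which belong to another epithelium of the pancreas, summed to 248 to 321 RPKM in the wild type and 192 to 241 RPKM in null libraries over 9 genes, none of them at 0. Their part in the Rab25 values was not tested. With the acinar covariate the Rab25 difference was -0.019 (95% interval -0.218 to 0.179), and the part of acinar RNA was not tested either. Rab35, a Rab of endocytic recycling, had the tightest wild type values of the tested family, 7.67, 7.73 and 7.63 RPKM, above 6.68, 7.08 and 7.34 RPKM in the nulls (log2 difference -0.11, limma adjusted p = 0.61).

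Late endosome and lysosome genes included the most abundant Rab of all. Rab7, the late endosome Rab also called Rab7a, was at 76.7, 78.3 and 74.5 RPKM in the wild type and 77.3, 78.4 and 83.5 RPKM in the nulls. The groups overlapped, with a log2 difference of 0.06 (95% interval -0.11 to 0.23, limma adjusted p = 0.85). Rab12, linked to lysosomal degradation, followed at 23.2, 20.1 and 22.5 RPKM against 22.6, 22.9 and 23.8 RPKM. Rab24, linked to autophagy, was at 13.3 ± 1.18 RPKM and 12.9 ± 1.03 RPKM (SD, n = 3 each), and both genes overlapped between genotypes. Rab9, which returns receptors from late endosomes to the Golgi, was at 6.53, 5.92 and 6.28 RPKM and at 5.50, 5.03 and 5.67 RPKM. All 3 null libraries were below the wild type ones, with a log2 difference of -0.18 (SE 0.07, 95% interval -0.34 to -0.02). It did not pass over all genes (unadjusted p = 0.035, limma adjusted p = 0.51).

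In the remaining group Rab28, a Rab linked to cilia, and Rab40c, which has a SOCS box for ubiquitin ligase assembly, were at 21.8 ± 0.60 and 12.3 ± 0.25 RPKM in the wild type and 19.7 ± 1.09 and 11.1 ± 0.56 RPKM in the nulls (SD, n = 3 each). Rab44, an unusually large Rab known from immune cells, was at 11.8, 12.4 and 11.9 RPKM in the wild type and 10.1, 9.28 and 11.2 RPKM in the nulls. It had the lowest p of the family, with a log2 difference of -0.22 (SE 0.08, 95% interval -0.40 to -0.03, unadjusted p = 0.026), and did not pass (limma adjusted p = 0.49). Macrophage and dendritic markers summed to 23.4 to 57.5 RPKM in the wild type and 18.3 to 33.1 RPKM in null libraries over 7 genes, none of them at 0, and their part in the Rab44 values was not tested. Rab23, a regulator of hedgehog signalling at the cilium, was the 1 tested member whose null libraries all lay above the wild type ones, at 3.34, 3.31 and 3.31 RPKM against 3.09, 2.69 and 2.95 RPKM (log2 difference 0.15, limma adjusted p = 0.57).

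Across the family, no Rab gene passed an adjusted p of 0.05 in limma in either direction. The background was 2 lower genes of 12652 tested, 0.0158%, and 0% higher. With no adjustment, Rab44 and Rab9 were lower at a limma p under 0.05, which is 2 of 47 members, 4.26% against 7.9% of all tested genes. There were 0 higher members, against 1.46%. Groups did not overlap for 10 lower members, 21.3% against 13.2% of all tested genes, and for 1 higher member, 2.13% against 1.9%. The lower ones were Rab44, Rab9, Rab11a, Rab28, Rab25, Rab40c, Rab39, Rab5a, Rab35 and Rab5c. With median-ratio scaling of the libraries these non-overlapping members numbered 6 lower, 12.8% against 8.12% of all genes, and 5 higher, 10.6% against 7.95%. Without wild type replicate 1 there were 18 lower ones, 38.3% against 23.6%, and without Ucn3 null replicate 3 there were 16, 34% against 26.2%. That scaling also changed the split at an unadjusted p under 0.05, to 1 lower and 3 higher members, beside 4.61% lower and 4.48% higher over all genes. Members that did not pass over this table were not thereby shown to be equal.

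In all 47 tested members the 95% interval of the difference lay within 0.585 of 0 on the log2(RPKM + 1) scale, a 1.5-fold change in RPKM + 1. For 32 of them it lay inside a 1.25-fold change in RPKM + 1. This limit depended on the setting: Rab6b passed it with a pseudocount of 0.1, with median-ratio scaling and in 4 of the 6 fits without 1 library, and Rab3a and Rab3d passed it with the acinar covariate. The scale understates the change in RPKM itself, the more so the lower the gene. The intervals are for each gene alone and are not adjusted for the number of genes.

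**Figure D3:**
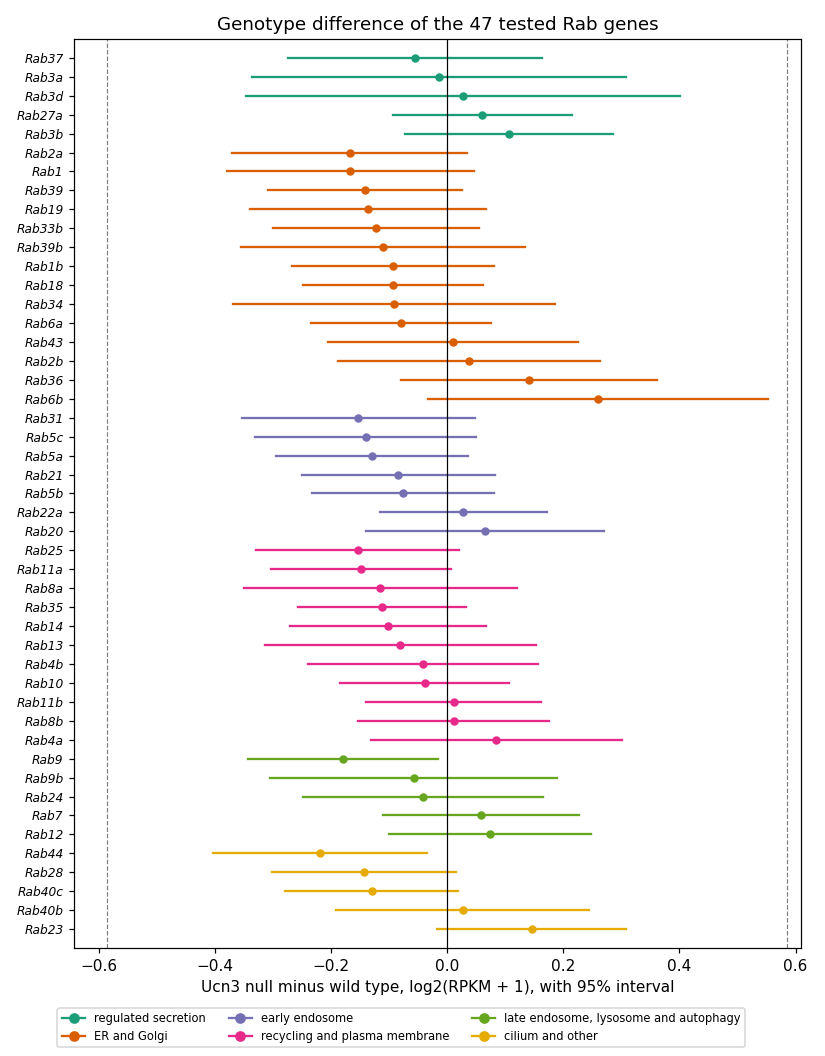
Difference between Ucn3 null and wild type islets on the log2(RPKM + 1) scale for the 47 tested Rab genes, with 95% limma intervals as bars and colours for the compartment groups; dashed lines mark a 1.5-fold change in RPKM + 1. In this fit every bar stays inside the dashed lines, and only those of Rab44 and Rab9 leave out 0.

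The median difference over the 47 tested members was -0.08, with 31 negative and 16 positive, 66% negative against 61.7% of all 12652 tested genes, whose median was -0.03. By group the median was 0.03 for the 5 tested genes of regulated secretion, -0.09 for endoplasmic reticulum and Golgi, -0.08 for early endosome, -0.08 for recycling, -0.04 for late endosome and -0.13 for the 5 genes of the remaining group. Library by library, the median deviation of the Rab genes from their own means was -0.009, 0.043 and 0.061 in wild type and -0.084, -0.027 and 0.024 in null islets. Ucn3 null replicate 1 was the lowest library and Ucn3 null replicate 3 lay above wild type replicate 1, so the groups overlapped. With median-ratio scaling the median difference of the members was -0.034, against 0.005 for all genes, and without Ucn3 null replicate 1 it was -0.028, against -0.009. With the acinar marker mean as a covariate it was 0.007, against -0.021 for all genes. Of the 47 members, 17 then had the other sign and 14 more were smaller by over 1.5 times. Some of the rest moved away from 0, such as Rab31, from -0.153 to -0.323, and Rab4a, from 0.085 to 0.246. Here the acinar mean itself was 7.17, 4.17 and 5.99 in wild type and 8.88, 8.22 and 6.88 in null islets. It thus ran largely with genotype, so this fit cannot tell the 2 apart. The part of acinar RNA in the Rab differences was not tested.

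**Figure D4:**
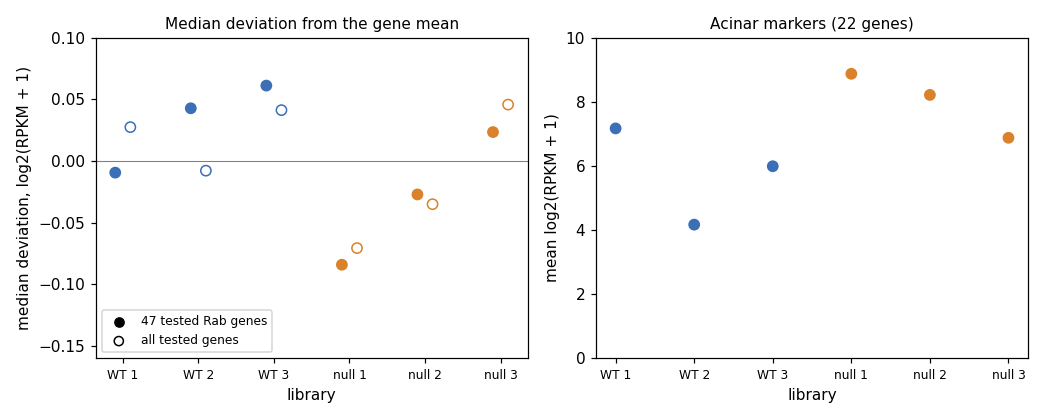
Left, the median deviation from each gene's mean over the 6 libraries, on the log2(RPKM + 1) scale, for the 47 tested Rab genes (filled) and all 12652 tested genes (open); right, the mean log2(RPKM + 1) of 22 acinar markers in the same libraries. Ucn3 null replicate 1 has the lowest Rab median, -0.084, and the highest acinar mean, 8.88.

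Some members under the filter, such as Rab15 and Rab32, had larger ratios between genotypes than the tested members, on few reads. Others did not, such as Rab3c, at a mean of 0.61 RPKM in both genotypes. Rab15, a Rab of neural endocytic recycling, was at 0.79, 0.84 and 0.81 RPKM in the wild type and 0.37, 0.58 and 0.60 RPKM in the nulls, about 107 to 128 and 61 to 88 reads. Rab32, which takes part in the making of lysosome-related organelles, was at 1.05, 0.90 and 0.66 RPKM and at 0.58, 0.50 and 0.44 RPKM, about 69 to 96 and 44 to 65 reads. In both genes all null libraries were below the wild type ones. Without a filter their limma adjusted p was 0.55, and 6 lower and 1 higher of the 57 members had an unadjusted p under 0.05, against 7.06% and 1.57% of all 21813 genes. The remaining scarce members, Rab17, Rab30, Rab38 and Rab33a, overlapped between genotypes, the last at about 5 to 12 reads per library.

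The order of paralogs by level was mostly the same in all animals. Of 15 subfamilies with several measured genes, 14 kept one order of levels in all 6 libraries, the exception being Rab3. Rab2a made up 95.5% to 97.1% of the Rab2 pair, Rab33b 97.3% to 98.8% of the Rab33 pair and Rab8a 88.4% to 90.3% of the Rab8 pair. Rab6b was 17.5% ± 2.56 of the Rab6 pair in the wild type and 21.7% ± 0.93 in the nulls (SD, n = 3 each), with every null library above every wild type library. Rab32 was 74.3% ± 3.91 of the Rab32 and Rab38 pair in the wild type and 59.9% ± 6.61 in the nulls (SD, n = 3 each), also without overlap. Both genes of this pair were under the filter, and Rab38 had only about 19 to 29 reads per library. Rab11a was 45.28% to 46.05% of the Rab11 genes, counted with Rab25, in the wild type and 44.33% to 45.18% in the nulls, again without overlap. The shares in the rest of the 15 subfamilies overlapped between genotypes. These shares were picked after their values were seen, and no test was made of them. Of 8 members with a second transcript row, Rab3a and Rab6a had rows proportional within 0.1 percent in every library, so these rows do not separate isoforms.

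A cyclic AMP response element was looked for in the windows of the family because the Ucn3 receptor couples to cyclic AMP. The palindrome TGACGTCA, which reads the same on both strands, was found in 2 of 47 members with a window, 4.26%, against 1.6% of all 27025 promoters and 2.85% of 8766 tested genes. The 2 matches are shown, with the element in capitals, from chr17:53479180-53479233 on the plus strand for Rab5a and chr3:88548331-88548390 on the minus strand for Rab25, where it begins 28 and 85 bases before the start.
Rab5a: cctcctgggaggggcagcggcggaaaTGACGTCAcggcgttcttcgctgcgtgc
Rab25: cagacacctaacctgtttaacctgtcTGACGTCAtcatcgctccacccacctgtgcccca
Rab5a and Rab25 had log2 differences of -0.13 and -0.15, as given above. The E-box CACGTG, also a palindrome, was in the windows of 4 members, Rab20, Rab21, Rab23 and Rab5a, 8.51% against 6.04% of all promoters and 8.59% of tested genes. A match of letters is a description of the window and not a binding site.

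The genes that act on Rabs were taken from 5 lists with 118 symbols, of which 115 were in the table and 97 were tested. None of the 97 passed in limma. Of the 97, 1, Mlph, was lower at an unadjusted limma p under 0.05, beside 7.9% of all tested genes. Groups did not overlap for 9 lower and 1 higher of the 97, beside 13.2% and 1.9% of all tested genes. Among the genes named below these were Rabac1, Rabif, Als2cl, Rin2, Tbc1d2b, Sytl3 and Mlph, all lower, and Rims2, higher. The median difference of the 97 was 0.01, with 50 positive and 47 negative.

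Genes for prenylation and recycling of Rabs were the 1 list with all tested members negative, 7 of 7, beside 61.7% of all tested genes. The median of this list was -0.12, against -0.03 for all genes. Rabac1, a Rab acceptor of the Golgi, was at 80.9, 98.5 and 87.9 RPKM in the wild type and 76.7, 79.3 and 76.7 RPKM in the nulls, without overlap (log2 difference -0.19, limma adjusted p = 0.55). Rabggtb, the catalytic subunit of the enzyme that prenylates Rabs, overlapped at 23.7 ± 1.81 and 20.8 ± 2.27 RPKM, and Rabif, a Rab chaperone, was at 6.47 ± 0.19 and 5.82 ± 0.32 RPKM (SD, n = 3 each; limma adjusted p = 0.59 and 0.58), the latter without overlap. With the acinar covariate the median of the list was -0.05.

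Exchange factors and GTPase-activating proteins had medians of 0.02 and 0.03 over 23 and 31 tested genes. Madd, the exchange factor for Rab3 and Rab27, was at 23.0, 20.8 and 27.6 RPKM in the wild type and 23.6, 24.7 and 26.1 RPKM in the nulls, a range nested in that of wild type. Dennd4c, an exchange factor for Rab10, was at 16.9 ± 1.92 and 17.9 ± 1.30 RPKM (SD, n = 3 each). Als2cl, Rin2 and Dennd3 had the lowest p of the exchange factors, with log2 differences of -0.19, -0.12 and 0.13 and limma adjusted p from 0.55 to 0.70. Among GTPase-activating proteins Rab3gap1, the catalytic subunit of the one that acts on Rab3, was at 17.3 ± 0.47 and 17.6 ± 0.52 RPKM and Sgsm1 at 19.8 ± 2.34 and 22.1 ± 2.16 RPKM (SD, n = 3 each). Tbc1d2b, Tbc1d24 and Tbc1d4, the last a target of insulin signalling, had log2 differences of -0.19, 0.25 and -0.22 (limma adjusted p from 0.53 to 0.61).

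Effectors of the secretory Rabs had a median of -0.02 over 10 tested genes and effectors of the other Rabs one of -0.004 over 26. Rph3al, also known as Noc2 and needed for regulated secretion in endocrine cells, was at 72.1, 56.0 and 69.3 RPKM in the wild type and 75.0, 65.6 and 76.1 RPKM in the nulls. Sytl4, which encodes granuphilin, the Rab27a effector that docks insulin granules, was at 51.8, 45.2 and 55.4 RPKM and at 54.2, 49.3 and 46.1 RPKM. Both overlapped, with log2 differences of 0.14 and -0.02 (limma adjusted p = 0.76 and 0.96). Mlph, a Rab27 effector that binds myosin, was at 3.29, 3.67 and 3.49 RPKM in the wild type and 3.00, 2.46 and 2.92 RPKM in the nulls, without overlap (log2 difference -0.24, SE 0.08, unadjusted p = 0.019, limma adjusted p = 0.49). Rims2, a Rab3 effector of granule priming, and Sytl3 had differences of 0.16 and -0.21 (limma adjusted p = 0.59 and 0.54). Uso1, the Rab1 tether of the Golgi, was at 85.2 ± 4.87 and 78.9 ± 4.81 RPKM and Appl2, an adaptor on Rab5 endosomes, at 29.9 ± 4.41 and 34.2 ± 4.93 RPKM (SD, n = 3 each). Myo5a, a myosin that carries granules, had a difference of 0.11, and the limma adjusted p of these 3 genes ran from 0.66 to 0.72.

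**Figure D5:**
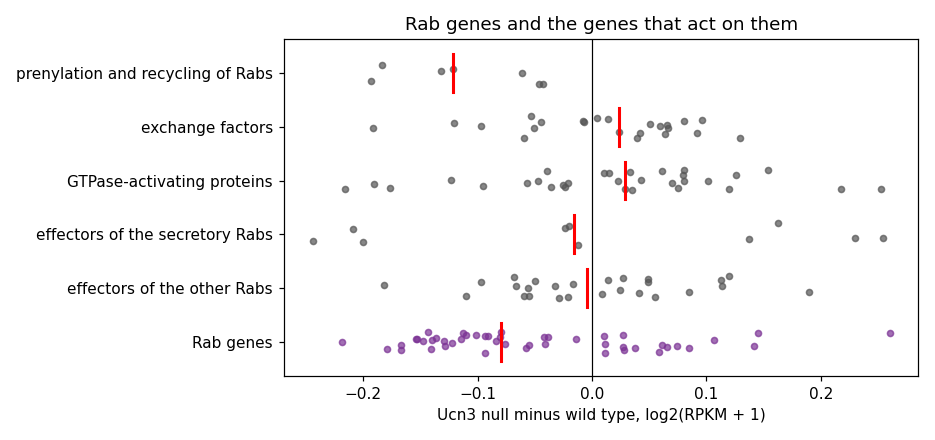
Difference between Ucn3 null and wild type islets on the log2(RPKM + 1) scale for each tested gene of the 5 lists of Rab regulators and effectors and for the 47 Rab genes; each point is a gene, spread vertically at random, and the red line is the median of its list. The prenylation list lies wholly left of 0, and the medians of the other 4 lists lie between -0.02 and 0.03.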

How the data were processed

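Total RNA of isolated islets was sequenced from TruSeq libraries, 1 per animal; the labels give mixed islet cells, but a sort is named in the protocol for RNA. The deposited table holds RPKM made by the authors, per the file headers, 1 row per RefSeq transcript. Per the submitters' processing notes STAR, bedtools and DESeq were used on build mm9; how reads shared between genes, or strand, were handled is not given in the sources. Of its 28129 rows, 117 were empty and 1 with text among its values was left out.

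One transcript per symbol was kept, the one with the highest mean, and genes averaging at least 1 RPKM were tested on log2(RPKM + 1) with limma 3.58.1 in R 4.3.3 (genotype only, eBayes with a mean trend, Benjamini-Hochberg over all tested genes, threshold 0.05). Intervals are limma's 95% intervals. The code was tested on simulated data. Members, role groups and lists were chosen with earlier results of these data known. Named were all secretory Rabs, the 3 highest genes of each other group, genes with an unadjusted p under 0.05, those beside the filter, and in each list of regulators the 3 lowest p and 2 highest levels; 1 gene that this rule names is not reported here. Rab6b, Rab15, Rab32 and the members with groups that did not overlap were added, with the promoters and paralog shares, after their values were seen.

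Depth came from the spacing of low RPKM times GENCODE M21 transcript length, matched for 97.5% of rows; 72.0% to 73.5% of the low values came within 0.1 of a whole read, and read numbers per gene are therefore approximate. Promoters (RefSeq, GRCm38.p6) matched 47 of 57 members, Rab1 and Rab7l1 under their newer symbols Rab1a and Rab29. Alternatives were a pseudocount of 0.1, no filter, a minimum of 5 RPKM, median-ratio scaling, no mean trend, the mean over transcripts, the acinar covariate, and leaving out each library. Figures used matplotlib 3.10.9.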

Additional observations from a re-analysis of the deposited data

How the results depend on the processing

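No Rab gene passed the threshold in any of the 13 alternatives run, and the lowest limma adjusted p of a member was 0.325. Genes past the threshold over the whole table numbered 2, and 4 without a filter, 1 with a minimum of 5 RPKM, 1 with the acinar covariate, and 1 to 5 with 1 library left out. Lower members with an unadjusted p under 0.05 numbered 2, and 6 without a filter, 1 with median-ratio scaling, 1 with the acinar covariate and 0 to 5 with 1 library left out; higher ones numbered 0, and 1, 3, 0 and 0 to 1 in the same order. Members whose groups did not overlap numbered 10 lower and 1 higher, and 6 lower and 5 higher with median-ratio scaling, with the shares given above. Without a filter they numbered 12 lower and 2 higher, 21.1% and 3.51% of members against 10.3% and 2.53% of all genes. With a minimum of 5 RPKM they numbered 10 lower and 0 higher, 26.3% and 0% against 15.9% and 1.38%. With 1 library left out they numbered 10 to 18 lower and 2 to 4 higher. In those 6 fits these were 21.3% to 38.3% and 4.26% to 8.51% of members. Over all tested genes the shares were 15.1% to 26.2% lower and 2.39% to 10.9% higher. The median difference of the members was -0.08, -0.034 with median-ratio scaling, 0.007 with the acinar covariate, and -0.103 to -0.028 with 1 library left out. Secretory effectors moved to a median of 0.15 with a minimum of 5 RPKM, where fewer genes are tested, and -0.089 with the acinar covariate, and the prenylation list to -0.05 with that covariate; the cause was not tested.

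Of 30 Rab genes followed, 10 changed sign in some alternative, none past the threshold in either sign. The 30 are the named genes and include Rab26, Rab27b, Rab3c and Rab7l1, which the main fit did not test. Over all 47 tested members, 17 had the other sign with the acinar covariate, and not all of these are listed here. With median-ratio scaling Rab24 was at 0.003, Rab3a at 0.032, Rab4b at 0.004 and Sytl4 at 0.023. With the acinar covariate Rab1 was at 0.007, Rab12 at -0.002, Rab24 at 0.086, Rab37 at 0.07, Rab3a at 0.244, Rab4b at 0.042, Rab5b at 0.015, Rab5c at 0.003, Rab9b at 0.073, Uso1 at 0.028, Rph3al at -0.029, Dennd4c at -0.007 and Rabggtb at 0.015; without a change of sign Rab3d was at 0.373, Rab25 at -0.019, Rab2a at -0.028 and Rab6b at 0.069. With 1 library left out, the range was -0.141 to 0.151 for Rab3d, -0.153 to 0.081 for Rab3a, -0.023 to 0.174 for Madd, -0.011 to 0.131 for Dennd4c, -0.103 to 0.016 for Rab24, -0.105 to 0.026 for Rab4b, -0.104 to 0.04 for Sytl4, -0.131 to 0.007 for Rab37 and -0.107 to 0.022 for Rab9b. No paired analysis was possible because the labels give the animals no shared numbers. With 3 animals a genotype, RPKM without counts, and members under the filter on about 5 to 382 reads per library, small differences cannot be resolved.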
